A study of Mus musculus with 3 samples.

Results

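Barcodes that held transcripts of at least 2 of 6 hair follicle bulge genes were examined in single-cell RNA-seq libraries of mouse dorsal skin at P18. The 6 genes were *Sox9*, *Lhx2*, *Cd34*, *Lgr5*, *Fgf18* and *Postn*. A barcode is the tag that a droplet gives to the transcripts captured in it. Members were selected on measured counts, those of the 6 genes. Barcodes with 200 or more detected genes and no more than 20% of counts from mitochondrial genes were kept. Of 5760 kept barcodes, 244 (4.24%) held at least 2 of the 6 and are called members below, 7 in control 1, 5 in control 2 and 232 in the library labelled *Vdr* cKO. Both controls came from *Vdr* flox/flox mice. The samples are labelled as epidermis cells, and by the study's methods the isolation was meant to yield cells of the hair follicle as well. The third library came from *Vdr* flox/flox; Krt14cre mice, in which Cre driven by the *Krt14* promoter removes exon 3 of *Vdr* from *Krt14*-expressing cells and their descendants. All 3 libraries carried the floxed allele, and the study's methods describe each as skin of 3 male mice, from which cells were freed by trypsin and scraping. Only 1 library carried Krt14cre, so no difference between genotypes could be tested, and genotype and library cannot be told apart. Total counts were 19943755 and 29241653 in the controls and 31080936 in the third library.

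The bulge is the niche in the outer root sheath, below the sebaceous gland, where hair follicle stem cells reside. These cells are known to be quiescent for most of the hair cycle and to feed the hair germ, from which the follicle regrows. *Sox9* (chr11:112782224-112787760, + strand, mm10) encodes a transcription factor that maintains bulge stem cells, and *Lhx2* (chr2:38339281-38369733, + strand) one that keeps them undifferentiated. *Cd34* (chr1:194938819-194961279, + strand) encodes a surface glycoprotein used to sort murine bulge cells. *Lgr5* (chr10:115450311-115587780, - strand) encodes an R-spondin receptor of the lower bulge and hair germ. *Fgf18* (chr11:33117430-33147400, - strand) encodes a growth factor of the inner bulge that holds stem cells in telogen. *Postn* (chr3:54361109-54391037, + strand) encodes periostin, a matrix protein that dermal fibroblasts also make.

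Some properties of the libraries bear on every value of the members. The deposited counts of *Vdr* (chr15:97854425-97910630, - strand) did not set the genotypes apart in the labelled direction. Over all kept barcodes *Vdr* was at 40.7 CPM (counts scaled to equal totals; 95% Poisson interval 37.9 to 43.7) in control 1, 35.9 (33.7 to 38.2) in control 2 and 80.8 (77.7 to 84.0) in the third library. The level in the labelled knockout was above both controls. Counts per gene do not show whether exon 3 was present in the transcripts, so they do not check the deletion.

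The library labelled *Vdr* cKO also held *Xist*, the RNA that coats the inactive X chromosome of female cells. *Xist* had 0 counts in kept barcodes of either control and was found under 740 of 2622 kept barcodes (28.2%) of the third library. At least 1 of 4 Y-linked transcripts (*Ddx3y*, *Eif2s3y*, *Kdm5d*, *Uty*) was found under 213 of 1480 kept barcodes of control 1, 370 of 1658 of control 2 and 270 of 2622 of the third library. There, *Xist* and a Y-linked transcript shared 110 barcodes. Among 708 barcodes with *Xist*, 13.4% (95% exact binomial interval 10.99 to 16.2) held a Y-linked transcript, and among as many without *Xist* but with like numbers of detected genes 13.3% (10.9 to 16.0004) did. A barcode with the transcript of the one sex thus held that of the other about as often as a barcode without it. Of the 232 members of that library, 104 held *Xist*, 59 a Y-linked transcript and 32 both. A Y-linked transcript was found in 30.8% of members with *Xist* and 21.1% of members without it, which were not matched in depth. Joint detection under a barcode is described below as such and not as expression in 1 cell.

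Many barcodes came in pairs in which the second was the first moved on by 1 base. A pair of members from each control is printed here because it shows the shift, with the 11 shared bases in capitals.
control 1, first: tGATTATTCCGA
control 1, second: GATTATTCCGAg
control 2, first: aGAACGGCTCCA
control 2, second: GAACGGCTCCAc
The first of the control 1 barcodes held 118658 counts with *Sox9*, *Lhx2* and *Postn*, and the second 43789 counts with *Sox9* and *Lhx2*. The control 2 barcodes held 38480 and 9883 counts, both with *Sox9* and *Lhx2*. Among kept barcodes there were 120 such pairs in control 1, 298 in control 2 and 472 in the library labelled *Vdr* cKO. They took in 15.6%, 34.4% and 34.9% of kept barcodes, where as many barcodes of random bases would give 0.522, 0.655 and 1.64 pairs. Correlations of expression were taken over genes found under either barcode. Their median was 0.673, 0.671 and 0.531 within pairs. It was -0.101, -0.0428 and -0.0648 between the first barcode and an unlinked one with about as many detected genes as the second. In the third library 51 pairs had 2 members and 62 had 1. Shifted pairs took in 154 of the 232 members there, 5 of 7 in control 1 and 4 of 5 in control 2, so that members counted below are not all separate.

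A run of 9 bases also recurred in member barcodes of all 3 libraries. Those with the most detected genes are shown with the run in capitals, because they were the richest barcodes of their libraries or close to it.
control 1: agGATTGCGGAt
control 2, first: tgGATTGCGGAt
control 2, second: GATTGCGGAtaa
Vdr cKO, richest: GATTGCGGAtaa
Vdr cKO, next: agGATTGCGGAt
Vdr cKO, last: gGATTGCGGAta
The control 1 barcode held 4691 detected genes and the first of control 2 held 8394, the most of any kept barcode in either library. Those of the library labelled *Vdr* cKO held 10096, 9866 and 6718 detected genes, the 3 highest numbers there, and 4, 5 and 5 of the 6 rule genes. In all, 8 members had a barcode that was also among the deposited barcodes of another library, kept or not. A barcode that was a member in several libraries is counted in each. When barcodes linked by 1-base shifts were summed and those with the run were left out, 5 members of 1359 barcodes remained in control 1, 2 of 1362 in control 2 and 184 of 2148 in the third library. For some of the results below, values from these joined barcodes are given beside those from the barcodes as deposited.

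Members made up 0.473% (0.190 to 0.972) of kept barcodes in control 1, 0.302% (0.0980 to 0.702) in control 2 and 8.85% (7.79 to 10.001) in the third library. With joined barcodes the shares were 0.368%, 0.147% and 8.57%. These intervals, and all others here, cover counting error only. Members were deep barcodes, with a median of 1808, 1505 and 1604.5 detected genes against 377, 502 and 688.5 in all kept barcodes. The share was higher where more genes were detected. In the third library it was 1.20%, 4.54%, 9.63% and 26.8% for barcodes in 4 classes of detected genes, which began at 200, 400, 800 and 1600. In control 1 it was 0%, 0.426%, 0.962% and 4.35%, and in control 2 it was 0%, 0.188%, 0.707% and 0.862%. The intervals of the third library lay above those of both controls in every class but the lowest.

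**Figure D1:**
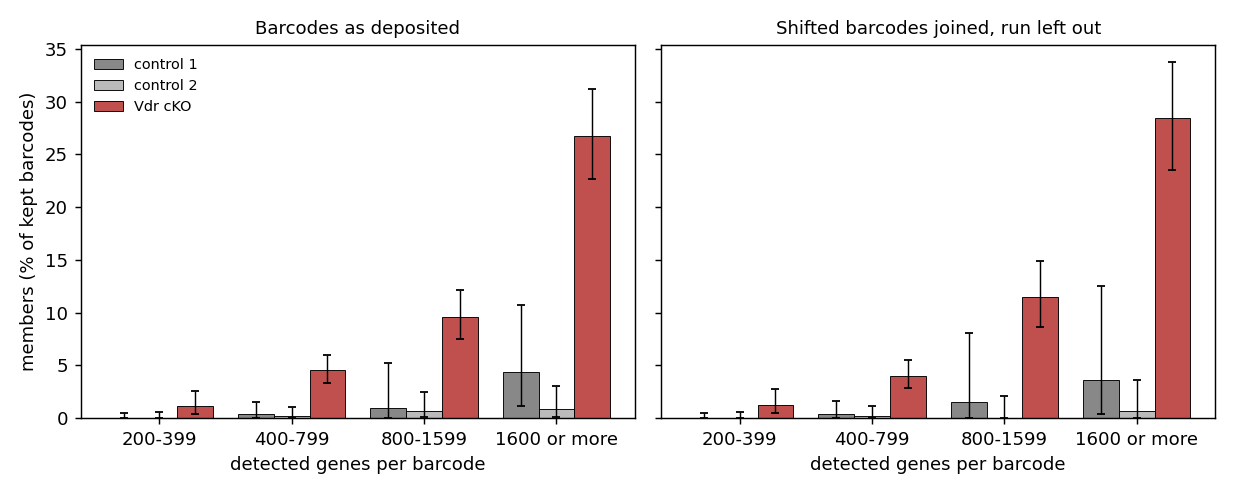
Share of kept barcodes (%, y axis) that held at least 2 of the 6 bulge genes, by number of detected genes (x axis), in the 3 libraries, with 95% exact binomial intervals. The left panel uses barcodes as deposited and the right panel barcodes joined by 1-base shifts without those that hold the shared run. The library labelled *Vdr* cKO had the highest share in each class, from 1.20% to 26.8% on the left.

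With 1000 counts drawn from each barcode, 2 of 1466 barcodes of control 1 (0.136%; 0.0165 to 0.492) still held at least 2 of the genes. In control 2 it was 0 of 1597, which allows a share of up to 0.188%, and in the library labelled *Vdr* cKO 50 of 2562 (1.95%; 1.45 to 2.56). This made total counts equal but not detected genes, of which kept barcodes had a median of 91.9, 118.005 and 164.6 per 1000 counts in the 3 libraries. Barcodes of terminally differentiated keratinocytes were set beside the rest. They were taken as those in which *Lor*, the gene of the cornified envelope protein loricrin, made up 2% or more of the counts. In the third library 24 of 344 such barcodes were members (6.98%; 4.52 to 10.2; median 4654.5 counts), against 208 of the other 2278 (9.13%; 7.98 to 10.4; median 3983 counts). At 1000 counts each the shares were 2.42% (1.05 to 4.72) and 1.88% (1.36 to 2.54). At both depths the intervals overlapped. Whether the *Lor*-rich barcodes were free of follicle cells was not tested. Where *Lor* made up 5% or more, 2 of 56 barcodes were members, and 0 of 37 with joined barcodes.

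*Sox9* was detected in 23.8% (22.2 to 25.5) of kept barcodes of the library labelled *Vdr* cKO, against 2.97% (2.17 to 3.97) in control 1 and 4.34% (3.41 to 5.44) in control 2. *Postn* was found in 1.22%, 0.784% and 13.1% of control 1, control 2 and the third library, and *Lhx2* in 0.743%, 0.362% and 5.23%. *Lgr5* was found in 0.135%, 0.181% and 2.17%, *Fgf18* in 0.203%, 0.724% and 1.49%, and *Cd34* in 0.2703%, 0.241% and 0.839%. The third library had the highest share of each gene, and its interval lay above both controls for *Sox9*, *Postn*, *Lhx2* and *Lgr5*. At 1000 counts *Sox9* was found in 1.43%, 1.82% and 10.2% of barcodes. Within the third library, *Lor*-rich barcodes held *Sox9* in 21.5% (17.3 to 26.2) of cases and the others in 24.1% (22.4 to 26.0), while the level of *Sox9* was 83.1 CPM in the former and 210.2 CPM in the latter. For *Postn* the shares were 10.2% and 13.6% and the levels 24.9 and 88.4 CPM. *Lhx2* was at 20.8 and 21.1 CPM. By share of barcodes the intervals of *Lor*-rich and other barcodes overlapped for each of the 6 genes.

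**Figure D2:**
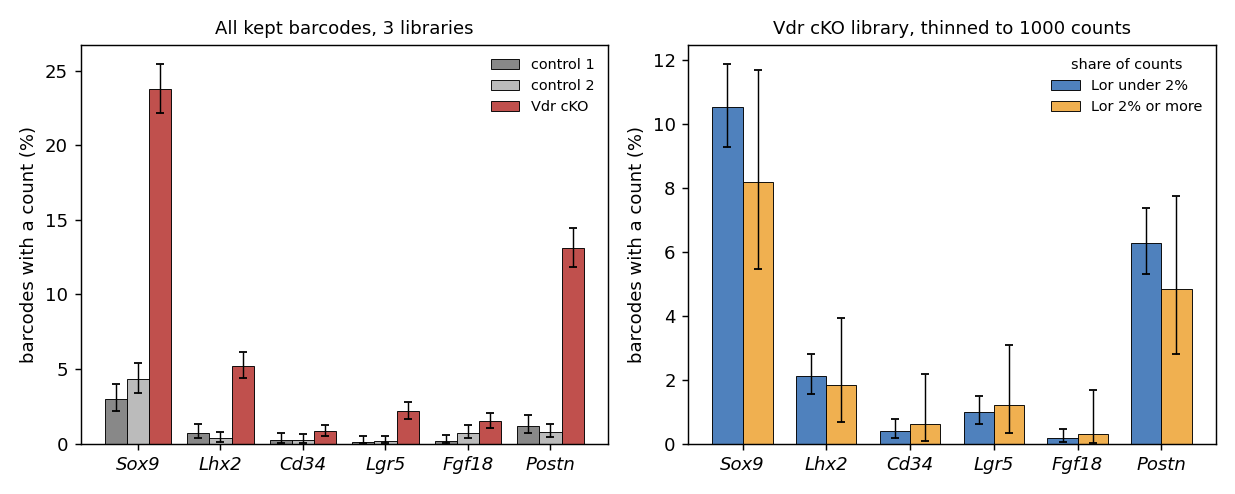
Share of barcodes (%, y axis) with at least 1 count of each of the 6 bulge genes (x axis), with 95% exact binomial intervals. Left, kept barcodes of the 3 libraries, where *Sox9* reached 23.8% in the library labelled *Vdr* cKO. Right, barcodes of that library thinned to 1000 counts, split by whether *Lor* made up 2% or more of their counts, where the intervals overlap for each gene.

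In the 232 members of the library labelled *Vdr* cKO, *Sox9* was present in 199 (85.8%), *Postn* in 159 (68.5%), *Lhx2* in 89 (38.4%), *Lgr5* in 36 (15.5%), *Fgf18* in 30 (12.9%) and *Cd34* in 15 (6.47%). *Cd34*, the classical sorting marker, was the rarest of the 6. The most frequent combinations were *Sox9* with *Postn* (83 members), *Sox9* with *Lhx2* (40), all 3 of these (23), *Lhx2* with *Postn* (15), *Sox9* with *Lgr5* (13) and *Sox9* with *Fgf18* (11). Where detected, *Sox9* had a median of 5 counts, and in 37 of its 199 members it rested on 1 count. *Postn* had a median of 3 counts and rested on 1 count in 39 of 159 members. *Lhx2* had a median of 2 and rested on 1 count in 32 of 89. A single member held 33.0% of the *Cd34* counts. Without *Sox9* in the rule 3.17% of kept barcodes were members, and without *Postn* 4.54%.

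The 12 control members are described by their content. In control 1, 2 held *Sox9* with *Lhx2*, 2 held *Sox9* with *Postn*, and 1 each held *Sox9* with *Lhx2* and *Postn*, *Lhx2* with *Postn*, and *Cd34* with *Postn*. In control 2, 3 held *Sox9* with *Lhx2*, 1 held *Sox9* with *Cd34*, and 1 held *Sox9*, *Lhx2*, *Cd34* and *Fgf18*. *Lgr5* had 0 counts in members of either control. The highest *Sox9* counts of control 1 members, 233 and 129, were in the shifted pair printed above, and so was the highest of control 2 members, 80. These barcodes had 0 counts of *Krt14*, a keratin of basal cells.

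The rule asked for joint detection, so pairs of its genes are described without a test. In the library labelled *Vdr* cKO, *Lhx2* was found in 10.8% (8.41 to 13.6) of 593 barcodes with *Sox9* and in 4.72% (3.16 to 6.75) of as many without *Sox9* and with like numbers of detected genes. *Postn* was found in 30.6% (22.9 to 39.1) of 134 barcodes with *Lhx2* and in 14.9% (9.36 to 22.1) of their matches. *Cd34* was found in 3.23% (1.62 to 5.70) of 341 barcodes with *Postn* and in 0.293% (0.00742 to 1.62) of their matches. The intervals lay apart for the first 2 pairs and touched for the last. Barcodes of a shifted pair were counted separately in these shares. Of 30 ordered pairs of rule genes the second was found more often with the first for 26, less often for 3 and equally often for 1, and the intervals lay apart for 3 of the 26. With joined barcodes the numbers were 22, 6 and 2, with 2 apart, and at 1000 counts 10, 4 and 16, with 0 apart. *Sox9* was found in 63.9% (46.2 to 79.2) of 36 barcodes with *Fgf18* and 61.1% (43.5 to 76.9) of their matches. The other direction was seen for *Lhx2*, in 2 of 36 barcodes with *Fgf18* and 8 of their matches and in 2 of 21 with *Cd34* and 7 of their matches, and for *Fgf18*, in 2 of 134 with *Lhx2* and 5 of their matches. With joined barcodes *Lhx2* was found in 11.5% (8.65 to 14.8) with *Sox9* and 5.62% (3.67 to 8.18) without. *Postn* was found in 33.3% (24.7 to 42.9) with *Lhx2* and 18.02% (11.4 to 26.4) without, and these intervals overlapped. At 1000 counts *Lhx2* was found in 4.58% (2.39 to 7.86) of 262 barcodes with *Sox9* and 2.67% (1.08 to 5.43) of their matches, and these intervals overlapped. So did those of *Postn* with and without *Lhx2*, at 15.1% (6.75 to 27.6) and 3.77% (0.460 to 13.0) of 53. For *Cd34* the direction turned, with 0 of 156 barcodes with *Postn* and 2 of their matches. The part of mixed transcripts in these shares was not tested.

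**Figure D3:**
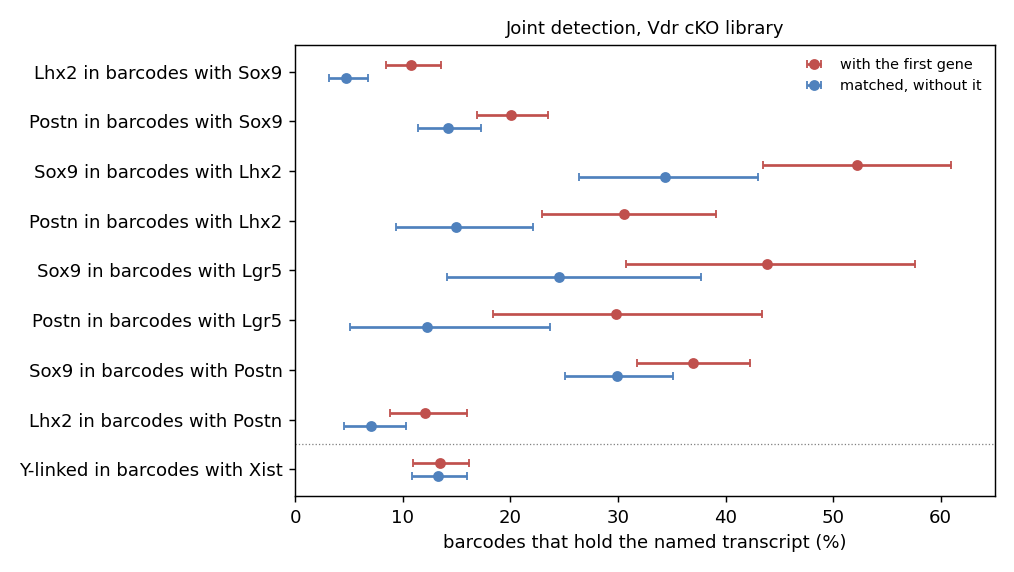
Share of barcodes (%) of the library labelled *Vdr* cKO that held a second transcript, among barcodes with a first gene and among matched barcodes without it, with 95% exact binomial intervals. *Lhx2* in barcodes with *Sox9* lies at 10.8% against 4.72%, and Y-linked transcripts in barcodes with *Xist* at 13.4% against 13.3%. The rule itself asked for joint detection of its genes, so the shares are a description and are not compared with each other.

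To see what members shared beyond the rule, each was paired with another kept barcode of its library that had a like number of detected genes. This gave 6 pairs in control 1, 4 in control 2 and 228 in the library labelled *Vdr* cKO, where the medians were 1577 and 1574.5 detected genes. Of these 228 matched barcodes 104 (45.6%) held 1 rule gene. Counts were summed over members and over matched barcodes of each library and compared across 3206 genes with edgeR's quasi-likelihood test, with the library as a block. At an adjusted p under 0.05 (Benjamini-Hochberg), 0 genes were higher (0.0%) and 0 lower (0.0%). At an unadjusted p under 0.05 there were 21 higher and 32 lower genes by edgeR. These were 53 of 3206, less than the share of 0.05 that would pass if no gene differed. DESeq2 called 9 higher and 3 lower among the same 3206 genes. On simulated data with the spread estimated here edgeR's test made no calls even of genes set to differ widely, so its count of 0 does not show that genes were alike. The control sums rested on few barcodes. The member with the most detected genes found no match in either control, and in control 2 it held 59.4% of the counts of all members. Genes are therefore described by their values, mainly in the third library. There, 2.75% of 3459 genes at 50 CPM or more on average over members and matched barcodes, the limit used for the lists below, were over 2-fold higher in members and 1.91% over 2-fold lower, against 38.3% and 38.2% in control 1 and 36.5% and 32.5% in control 2.

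Bulge genes outside the rule were found in more members than matched barcodes. Of 20 in the files, 19 were found in at least 10 barcodes of the pairs of the library labelled *Vdr* cKO, and members exceeded their matches for 18 of the 19. Over 9963 genes with as many barcodes, members exceeded for 50.9%. By level, 9 of the 20 reached 50 CPM on average over the 2 groups, of which 8 were higher in members and 1, *Itga6*, lower, with 0 over 2-fold. The median log2 ratio of the 9 was 0.55, against 0.03 over all genes at that level, of which 1845 of 3459 were higher in members. These genes are outside the rule but come from the same barcodes, and they did not pass the edgeR test.

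*Krt15* (chr11:100131758-100135928, - strand), a keratin of bulge and basal cells, was the most abundant of them. Its level in members and matched barcodes was 12510 and 1362 CPM in control 1, 2316 and 1401 CPM in control 2, and 9894 (95% Poisson interval 9820 to 9969) and 6267 (6207 to 6327) CPM in the third library. It was found in 225 of 228 members and 224 of 228 matched barcodes of the library labelled *Vdr* cKO. In control 2, 216 of the 219 member counts of *Krt15* were under 1 barcode with the shared run, and with joined barcodes the order turned, at 58.7 CPM (3 counts) in members and 361.7 CPM in matched barcodes. In control 1 it stayed higher in members, at 12944 and 3305 CPM. As deposited, 2726 of the 3864 member counts of *Krt15* in control 1 were under 1 barcode, with 5859 CPM in the other members. *Col17a1* (chr19:47646344-47692094, - strand) encodes collagen XVII of the hemidesmosome, which anchors stem cells. It was at 359.4 and 41.9 CPM in control 1, 84.6 and 29.5 CPM in control 2 and 470.7 and 249.6 CPM in the third library, where it was found in 67.1% (60.6 to 73.2) of members and 51.8% (45.1 to 58.4) of matched barcodes. With joined barcodes these shares were 69.0% and 60.3%. The 111 counts of control 1 members were all under 1 barcode, and in control 2 the order turned with joined barcodes, at 39.1 and 57.1 CPM. *Gas1*, a membrane protein of hedgehog signalling, was found in 34.6% (28.5 to 41.2) and 16.7% (12.1 to 22.2), and in 35.3% and 20.7% with joined barcodes.

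*Nfatc1*, a transcription factor of stem cell quiescence, was found in 39 members and 13 matched barcodes (17.1%, 12.5 to 22.6, and 5.70%, 3.07 to 9.55), at 51.0 and 7.67 CPM. With joined barcodes the shares were 16.3% and 8.70%, and the log2 ratio of its levels was 1.32, against 2.59. In members of the controls it was at 304.3 and 31.7 CPM and in their matched barcodes at 0, but in control 1 71 of its 94 counts were under 1 barcode, with 120.9 CPM in the other members, and in control 2 its 3 counts were all under the barcode with the shared run. *Tcf7l2*, a transcription factor of Wnt signalling, was found in 38 and 15 barcodes, *Ccn2*, a matricellular protein, in 37 and 15, and *Sfrp1*, a secreted Wnt inhibitor, in 42 and 18. *Tbx1*, a transcription factor of the bulge, was found in 25 and 12, with overlapping intervals (7.22 to 15.8% and 2.75 to 9.01%). *Hopx*, the bulge gene found in fewer members, was in 91 and 102, and in 45.1% and 44.6% with joined barcodes. *Foxc1*, a transcription factor of quiescence, was at 62.9 (57.1 to 69.2) and 60.7 (55.0 to 66.9) CPM.

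Basal and outer root sheath genes were also found in more members, 11 of 12, with *Cdh3* in equal numbers. *Krt14* (chr11:100203162-100207548, - strand) was at 4989 and 384.2 CPM in members and matched barcodes of control 1, 412.4 and 383.4 CPM in control 2 and 2539 and 1787 CPM in the third library. In control 1, 1521 of the 1541 member counts of *Krt14* were under 1 barcode, and the other 5 members were at 102.97 CPM, below the matched barcodes. Joined members and their matches were at 5233 and 2533 CPM. In control 2 all 39 were under the barcode with the shared run, and joined members had 0. Its partner keratin *Krt5* was at 2600 and 1965 CPM in members and matched barcodes of the third library, to which the following values also belong. *Dst* (chr1:33908225-34308661, + strand), which encodes a plakin of the hemidesmosome, was at 811.6 and 546.3 CPM and was found in 84.6% (79.3 to 89.1) and 66.7% (60.1 to 72.8). *Krt17*, a keratin of the outer root sheath, was at 2633 and 1933 CPM, and *Lamb3*, a chain of laminin 332, was found in 24.1% (18.7 to 30.2) and 11.4% (7.59 to 16.3). Of 9 genes at 50 CPM or more, 7 were higher and 2, *Itgb1* and *Barx2*, lower, with a median log2 ratio of 0.51. Upper follicle genes were found in more members for 7 of 7, among them *Gata6*, a transcription factor of the sebaceous duct, in 38 and 17 barcodes, and *Krt79*, a keratin of the infundibulum, in 161 and 143. In control 1 the upper follicle genes summed to 666.9 CPM in members and 817.3 CPM in matched barcodes, and in control 2 to 46733 and 1895 CPM, of which *Cst6* made up 45992 and 1629.6 CPM.

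Genes of differentiated epidermis went the other way. Of 12 with enough barcodes, 10 were found in fewer members (4324 of 9963 over all genes), 1 in more and 1 in equal numbers. At 50 CPM or more 10 of 11 were lower in members of the library labelled *Vdr* cKO, with *Krt1* the exception, and the median log2 ratio was -0.68. *Lor* (chr3:92080271-92083142, - strand) was at 1266 and 2473 CPM in members and matched barcodes of control 1, 11020 and 48778 CPM in control 2, and 8537 (8468 to 8607) and 15416 (15322 to 15509) CPM in the third library. With joined barcodes *Lor* was higher in members of control 1, at 1367 and 374.1 CPM, and lower in control 2, at 1057 and 10908 CPM. *Flg2*, a filaggrin-like protein of the cornified layer, was at 898.4 and 1809 CPM and was found in 66.2% (59.7 to 72.3) and 77.6% (71.7 to 82.9). *Krt10*, the suprabasal keratin, was still found in 227 of 228 members of the third library, at 21514 CPM against 29182 CPM. In control 1 it was also lower in members, at 16971.5 and 36315.5 CPM. In control 2 *Krt10* was higher in members, at 21182.5 and 19813.7 CPM, but lower with joined barcodes, at 6711 and 25110 CPM. *Flg2* was lower in members of both controls, but with joined barcodes it was higher in control 1, at 309.0 and 134.5 CPM. Members thus held abundant transcripts of differentiated keratinocytes, and they are not called bulge cells here.

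**Figure D4:**
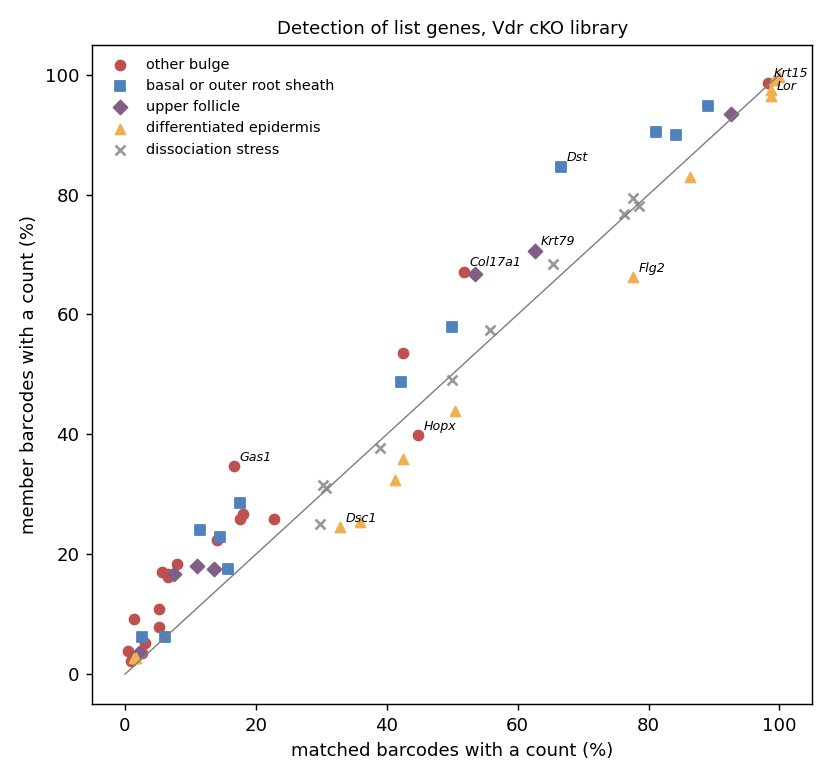
Share of member barcodes (%, y axis) against share of matched barcodes (%, x axis) with a count of each gene of 5 lists in the library labelled *Vdr* cKO. Each point is a gene and the line marks equality. *Col17a1* (67.1% against 51.8%) lies above the line and *Flg2* (66.2% against 77.6%) below it.

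**Figure D5:**
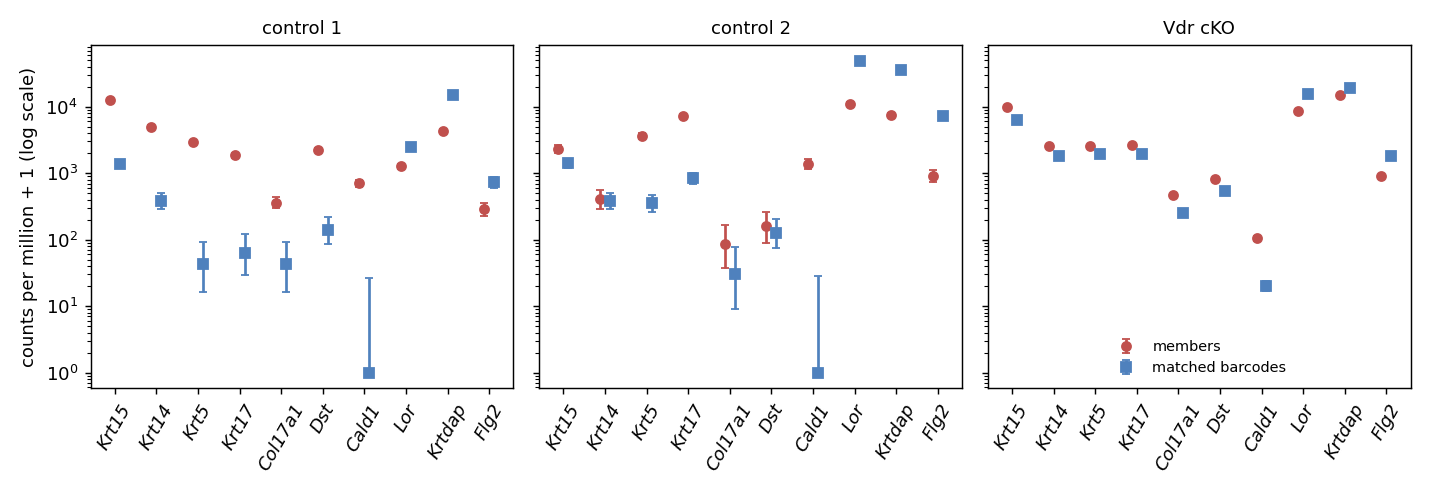
Level of 10 genes (CPM with 1 added, log axis) in members and matched barcodes of each library, from sums over 6, 4 and 228 pairs, with 95% Poisson intervals of the counts. As deposited, *Krt15* lies higher and *Lor* lower in members of all 3 libraries, but with joined barcodes *Krt15* turned in control 2 and *Lor* in control 1.

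Transcripts of other skin cell types were looked for as well. In members of control 1, control 2 and the third library the 8 fibroblast genes summed to 3.24, 31.7 and 205.4 CPM, and in matched barcodes to 0, 22.1 and 94.9 CPM. *Sparc*, a matrix protein, gave 150.7 CPM of this in the third library, where 5 of the 8 genes (*Col1a2*, *Col3a1*, *Dcn*, *Lum*, *Dpt*) were at 0 in paired members and *Col1a1* was found in 8 members. The part of fibroblast transcripts in the *Postn* counts was not tested. Endothelial genes summed to 0, 0 and 0.294 CPM in members and 0, 51.6 and 1.47 CPM in matched barcodes, with *Pecam1* the only 1 of 7 above 0 in members of the third library. Smooth muscle genes summed to 0, 0 and 0.147 CPM in members, with *Acta2* and *Tagln* at 0 in the third library. In matched barcodes they summed to 6.99, 0 and 1.47 CPM. Dermal papilla genes summed to 0, 0 and 8.23 CPM in members, led by *Crabp1*, with *Alpl* at 0. In matched barcodes these were at 6.99, 0 and 5.31 CPM, and with joined barcodes at 7.19 and 0.582 CPM in the third library.

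Melanocyte genes summed to 0, 31.7 and 31.8 CPM in members and 0, 0 and 2.51 CPM in matched barcodes. *Dct* led them in the third library, found in 2 members and 5 matched barcodes, with *Tyrp1*, *Mlana* and *Sox10* at 0, and with joined barcodes the order turned, at 27.4 and 62.3 CPM. T cell genes, led by *Trbc2*, summed to 437.1, 10.6 and 146.4 CPM in members and 181.6, 7.37 and 215.8 CPM in matched barcodes. Antigen-presenting cell genes, led by *Cd74*, summed to 16.2, 507.6 and 203.8 CPM and to 14.0, 302.3 and 161.7 CPM, and turned with joined barcodes to 202.9 and 460.7 CPM in the third library. Erythroid genes, led by *Hba-a1*, summed to 0, 31.7 and 51.0 CPM and to 20.96, 81.1 and 56.8 CPM. The part of these cells in the results was not tested.

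Genes of the companion layer and inner bulge were over 2-fold higher in members of the library labelled *Vdr* cKO for 3 of 3 at 50 CPM or more. *Krt6a*, a keratin of both layers, was at 139.2 and 0 CPM in members and matched barcodes of control 1, 4156 and 29.5 CPM in control 2 and 330.4 and 88.0 CPM in the third library. It was found there in 39.5% (33.1 to 46.1) and 18.9% (14.0 to 24.6), and in 35.9% and 22.8% with joined barcodes. A single barcode held all 43 member counts of *Krt6a* in control 1 and 346 of 393 in control 2. *Krt75*, a keratin of the companion layer, was found in 24 and 7 barcodes, with 55.9% of its member counts under 1 barcode. *Krt16* was found in 21 and 18, with 47.4% under 1 barcode. Of the inner root sheath genes, *Gata3* (chr2:9857078-9890034, - strand), a transcription factor of that lineage, was found in 181 members and 181 matched barcodes, and *Tchh*, which encodes trichohyalin, in 30 and 22. Hair shaft or matrix genes summed to 198.1 CPM in members and 57.4 CPM in matched barcodes, led by *Krt35*, with 69.3% of its counts under 1 barcode. Sebaceous genes at 50 CPM or more were higher for 5 of 5, although *Scd1*, a desaturase of lipid synthesis, was found in 128 and 129 barcodes. In control 1 the 7 sebaceous genes went the other way, at 213.7 CPM in members and 3094 CPM in matched barcodes, and in control 2 they were at 2284 and 1408 CPM.

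Of 7 cell cycle genes 5 were found in more members and 2 in fewer, with the proliferation marker *Mki67* in 22 and 23 barcodes and *Top2a*, a topoisomerase, in 37 and 31. Of 12 genes of stem cell signalling with enough barcodes, 6 were found in more members and 6 in fewer. *Notch1*, a receptor, was found in 43.9% (37.3 to 50.6) and 31.6% (25.6 to 38.0), at 96.7 and 102.8 CPM. *Id2*, a target of Bmp signalling, was found in 48 and 29 barcodes, and *Axin2*, a target of Wnt signalling, in 39 and 41. Dissociation stress genes were split, 6 in more members and 4 in fewer, and summed to 3891 and 4162 CPM.

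*Vdr* had 0 counts in the 7 members of control 1, which allows up to 8.15 CPM. It was at 60.1 CPM (32.9 to 100.9) in the 5 members of control 2 and 120.5 CPM (112.7 to 128.8) in the 232 of the third library. In matched barcodes *Vdr* was at 523.9 CPM in control 1 (75 counts under 2 of 6) and 14.7 CPM in control 2 (2 counts), so in control 1 it was lower in members. The counts of control 2 members were all under the barcodes with the shared run, and its 2 joined members had 0. In the third library *Vdr* was found in 30.3% (24.4 to 36.7) of paired members and 21.1% (15.9 to 26.9) of matched barcodes, at 122.2 and 49.5 CPM, and in 35.3% and 25.5% with joined barcodes. *Hr*, which encodes the VDR-binding corepressor hairless, was at 170.1 and 180.2 CPM, and *Rxra*, the dimer partner, at 103.4 and 119.4 CPM. *Cyp24a1*, a target of VDR, had 0 counts in both.

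Of 3322 genes at 50 CPM or more on average, 505 (15.2%) were higher in members of all 3 libraries and 456 (13.7%) lower, and 0.873% and 0.542% were over 2-fold higher and lower in all 3. With joined barcodes 187 of the 505 were again higher in all 3 and 129 of the 456 again lower, where equal values in a library count as neither. By the rule for named genes the highest were *Shisa2*, *Nfatc1*, *Cald1*, *Kcnq1ot1*, *Pdzrn3*, *Krt6a*, *Galnt18*, *Bcl9l*, *Khsrp* and *Metap1d*, of which 8 of 10 were higher in all 3 with joined barcodes. *Cald1* (chr6:34598500-34775473, + strand), which encodes the actin-binding protein caldesmon, was at 702.6 and 0 CPM in control 1, 1375 and 0 CPM in control 2 and 103.4 and 19.0 CPM in the third library. It was found there in 25.4% (19.9 to 31.6) of members and 9.21% (5.79 to 13.7) of matched barcodes, and in 27.2% and 10.9% with joined barcodes. A single barcode held 210 of the 217 member counts of *Cald1* in control 1 and 115 of 130 in control 2. At the other end were *Smpd3*, *Slc30a7*, *Tmem41a*, *Fitm2*, *Ugcg*, *Eppk1*, *Cnn3*, *Fbxw5*, *Vps13a* and *2310050C09Rik*, of which 3 of 10 were lower in all 3 with joined barcodes. The genes at both ends were chosen on their values as deposited. Joined barcodes hold the same counts in part, so these numbers are no independent check. *Ugcg*, which encodes a ceramide glucosyltransferase, was found in 42 and 59 barcodes, and *Eppk1*, which encodes epiplakin, in 77 and 95.

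By share of barcodes, the largest differences in the third library, chosen after their values were seen, were for *Rflnb* (46.1% of members and 17.5% of matched barcodes), *Alcam* (36.0% and 12.7%), *S100a6* (165 and 114 of 228 barcodes), *Crip1* (32.9% and 10.96%), *Tns4* (55.3% and 33.8%), *Nfib* (77.6% and 56.6%) and *Ptn* (44.7% and 23.7%). *Nfib* encodes a transcription factor of bulge stem cells and *Alcam* an adhesion molecule. With joined barcodes the shares were 71.7% and 60.9% for *S100a6*, a smaller difference than as deposited (72.4% and 50%), 78.8% and 64.1% for *Nfib* and 37.0% and 16.8% for *Alcam*. In control 2 members were below matched barcodes for *Rflnb* (1 and 5 counts), *Alcam* (0 and 6) and *Tns4* (3 and 9), and *Crip1* had 0 counts in both. *Skint10*, of a family expressed in keratinocytes, was found in 35.1% and 50.9%, and *Fdps*, an enzyme of cholesterol synthesis, in 42.5% and 57.9%. Levels could rest on few barcodes. *Car6* (chr4:150187015-150201332, - strand), a secreted carbonic anhydrase, was at 383.3 and 36.1 CPM, but 61.5% of its member counts were under 1 barcode, and with joined barcodes it was found in 14.1% and 14.7%.

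Levels were compared by the number of rule genes in the library labelled *Vdr* cKO. *Krt15* was at 6429, 7425, 8933 and 11738 CPM in kept barcodes with 0, 1, exactly 2 and 3 or more of them, and *Lor* at 14421, 11144, 10602 and 6610 CPM. *Krt14* was at 1621, 2038, 2317 and 3050.4 CPM. *Col17a1* and *Krt10* followed no single order, at 375.6, 350.7, 423.7 and 532.5 CPM and at 25226, 24590.2, 20612 and 23443 CPM. The median number of detected genes rose alongside, from 583 and 897 to 1382 and 2413. The 695 barcodes with 1 gene lay just outside the rule and the 182 with exactly 2 just inside it. In control 1 *Krt15* followed no single order, at 2915, 1663, 13486 and 6750 CPM, while *Lor* fell, from 14430 to 16.9 CPM. In control 2 *Krt15* rose, from 2079 to 4373 CPM, while *Lor* followed no single order, at 13662, 7974, 11020 and 22160 CPM. With exactly 2 and 3 or more rule genes there were 6 and 1 barcodes in control 1 and 4 and 1 in control 2. Members of the third library also varied with the genes they held. *Lor* was at 4163 CPM in the 100 members with *Sox9* and *Postn* but no *Lhx2*, and at 16892 CPM in the 44 with *Sox9* and *Lhx2* but no *Postn*. These genes were chosen after their values were seen. *Krt15* was at 11344 and 8358 CPM and *Krt6a* at 256.4 and 749.9 CPM in these groups. *Angptl7*, a secreted protein known from the bulge, was at 50.2 CPM in the former, in 10 barcodes, and at 0 in the latter.

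Members of the library labelled *Vdr* cKO were last set against members of the controls. Of 4852 genes at 50 CPM or more in members of any library, 10.7% were over 2-fold above both controls and 3.54% over 2-fold below both, 693 genes in all. The split depended on the processing. Of the genes apart, 521 of 693 were higher as given, 432 of 631 with TMM factors and 295 of 566 with DESeq2 size factors. Where each gene was counted once per barcode, with 10168 genes compared in place of 4852, it was 245 of 845. With joined barcodes 1449 of 1571 were higher. Within 300 to 4000 genes and 5% mitochondrial counts it was 1596 of 1713, and with no limit on level 4287 of 4585. As given, control 1 set against the other libraries in the same way stood apart for 56.5% of genes, and control 2 for 25.7%. With joined barcodes the shares were 34.1% for the third library and 40.9% and 68.4% for the controls. The third library also had the lowest share in the matched barcodes that were not members, at 24.1% against 46.03% and 47.9%, and the control values rest on 7 and 5 members and on 6 and 4 matched barcodes. Over all kept barcodes the order was the reverse, with 4.98% of 3917 genes for the third library and 1.66% and 1.68% for the controls. The highest genes against the nearer control were *Car6*, *Xist*, *Fcgbp*, *Krt75* and *Scgb1a1*, which had 0 counts in members of both controls. *Xist* was at 140.9 CPM in members and 141.8 CPM in all kept barcodes of the third library, whereas *Scgb1a1* was at 47.1 and 31.5 CPM in all kept barcodes of the controls. The other genes were also higher over all kept barcodes of the third library. In control 1, control 2 and the third library *Car6* was at 9.68, 33.8 and 121.7 CPM there. *Fcgbp* was at 27.2, 11.9 and 117.4 CPM and *Krt75* at 0.266, 0.174 and 48.0 CPM. The lowest were *Gm26885*, *Prss12*, *Prrg3*, *Ociad2* and *Galnt18*. *Ociad2* was at 421.2, 553.9 and 35.0 CPM in members of control 1, control 2 and the third library, and at 80.2, 38.9 and 51.3 CPM in all their kept barcodes.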

How the data were processed

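The authors deposited whole counts per gene and barcode for each library, on mm10 per the submitters' processing notes, and the study names Seurat v4 for alignment. Whether molecules or reads were counted is not given in the sources used here, so PCR copies may make intervals too narrow. The 6 genes, the lists and the tests were chosen with earlier results of these data known. Beyond the stated mice per library, nothing says how the controls were separated, so p-values measure only the spread between these libraries, which may be technical.

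Each member was paired, without replacement, with the kept barcode nearest in detected genes outside the rule genes, within 10%. Summed counts were tested with edgeR 4.0.16 quasi-likelihood (filterByExpr, TMM, library as block, Benjamini-Hochberg) in R 4.3.3, and with DESeq2 1.42.0 as an alternative. The model was tested on simulated data, where it found genes changed at a low spread and none at the spread estimated here. Log2 ratios used 1 CPM added. Intervals are at 95% and the limit at 0 is 3 counts. Genes were named by list, by the 10 largest and 10 smallest ratios holding in all 3 libraries where none passed the test, and by the 5 highest and 5 lowest against the nearer control. Doublets were not called. Gene positions are from GENCODE M21.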

Additional observations from a re-analysis of the deposited data

Results flagged for a closer look

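For 5 genes of the lists, members differed from matched barcodes in one direction in the library labelled *Vdr* cKO and in the other in both controls. The log2 ratio of members over matched barcodes was 0.080 for *Hopx* (-2.52 in control 1 and -0.63 in control 2), 0.53 for *Trp63* (-1.04 and -1.17), 0.29 for *Gata3* (-0.67 and -0.69), 0.38 for *Elovl6* (0 counts in members and 300 in matched barcodes of control 1, and -0.31 in control 2) and -0.082 for *Hr* (1.05 and 0.43). The difference between libraries was not tested, and the control ratios rest on 6 and 4 pairs of barcodes. The share of all genes with such a turn is not given, so the number is no result about the lists. For *Hopx* and *Hr* the ratio in the third library was small. *Hopx* was found there in fewer members than matched barcodes, against the direction of its level. Among barcodes that were not kept, 10.6% (17 of 160; 6.31 to 16.5) held 1 of the 6 rule genes in the library labelled *Vdr* cKO, against 0.841% (11 of 1308) in control 1 and 0.873% (7 of 802) in control 2, and 0 held 2.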

How the results depend on the processing

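With the 0 higher and 0 lower genes of the edgeR test, the fit without the library block gave 0 and 0. DESeq2's test gave 9 higher and 3 lower, no filter 4 and 2, all other kept barcodes 5 and 0, matching on total counts 7 and 1, and 3 or more rule genes 0 and 1. Leaving out 1 library gave 1 to 7 higher and 0 to 3 lower genes, with 7 and 2 without the library labelled *Vdr* cKO. Counting each gene once per barcode left no gene after the filter and gave no value. The share of members at 1000 counts was 0.136%, 0% and 1.95% in control 1, control 2 and the third library, and at 2000 counts 0.0782% in control 2 and 3.98% in the third. With 500 or more genes it was 1.43% in control 1 and 12.035% in the third, and with 3 or more rule genes 0.0676%, 0.0603% and 1.91%. Without *Sox9* it was 0.0603% in control 2 and 3.17% in the third, where it was 6.71% without *Lhx2*, 4.54% without *Postn* and 5.68% with 2 or more counts per gene. In *Lor*-rich barcodes it was 0% in control 1, 0.602% in control 2 (2 of 332, against 0.226%, 3 of 1326, in the others) and 6.98% in the third, and with *Lor* at 5% or more 0%, 0% and 3.57%. The 693 genes that set members of the third library apart became 314 at 100 CPM, 4585 with no limit on level, 1198 at 1.5-fold, 1713 within 300 to 4000 genes and 5% mitochondrial counts and 1571 with joined barcodes, and 1656 without control 1 and 2904 without control 2. *Lhx2* with *Sox9* exceeded its matches by 6.07 percentage points, and by 1.91 at 1000 counts. The cause of these moves was not tested. Joining barcodes, *Lor*-rich barcodes, 2 or more counts per gene and matching to barcodes with none of the 6 genes were chosen after seeing the data. Against the latter, the log2 ratio was 1.14 for *Krt15*, 1.43 for *Krt14*, 1.65 for *Col17a1* and -1.41 for *Lor*, against 0.66, 0.51, 0.91 and -0.85.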
